A study of Rattus norvegicus with 6 samples.

Results

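This report describes Gdf15 and 9 genes that the tumour suppressor p53 is known to switch on (Cdkn1a, Mdm2, Ccng1, Bax, Btg2, Phlda3, Zmat3, Aen and Sesn1) in the renal cortex of rats given a nitroaromatic compound. The members were taken as the probes whose transcript accession belongs to one of these genes. Of the 10 genes, 9 had probes, 19 probes of 61537 on the array and 9 of 15645 genes that could be named, and none was matched to Sesn1. The 9 genes were all tested, through 17 probes that passed the filter on dim signal. The samples were renal cortex from 3 male Sprague-Dawley rats that received p-nitroanisole, a nitrobenzene with a methoxy group, for 4 weeks (500 mg/kg daily), and from 3 male Sprague-Dawley rats that received corn oil, the vehicle, over the same time. All rats were bought at 5 weeks of age, and each had its own 1-colour Agilent array. The route of dosing is not given in the sources used here.

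The p53 protein is held low by Mdm2, a ubiquitin ligase that is itself a p53 target, and it builds up when DNA is damaged. It then binds DNA near its targets and raises genes that stop the cell cycle, repair DNA or start cell death, so a joint rise of these genes in a tissue is commonly read as a DNA damage response. Gdf15, a secreted growth factor of the TGF-beta superfamily that signals through Gfral in the hindbrain and lowers food intake, is a p53 target too, but it is also raised by the stress factor ATF4 and in several kinds of injured cells. In humans, red cell precursors secrete it as well. The comparison of the groups therefore asks whether the p53 targets differed together, and whether Gdf15 differed with them or without them.

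The windows around the start sites of the genes are shown because they hold, or lack, the sequence that p53 binds. RefSeq (build GRCr8) gave windows of 300 bases, 250 before and 50 after a start, for 8 of the 10 genes, 2 of them for Gdf15. They were searched on both strands for the p53 response element unit, which p53 binds as a pair of copies. Searches were also made for the AP-1 site TGANTCA, the ATF4 site TGATGNAAN, the antioxidant response element core TGACNNNGC, which NRF2 binds, and the CHR TTTGAA of cell cycle promoters. Capitals mark every match, in 4 windows printed 5' to 3' on the strand of the gene.
Gdf15, chr16:18839015-18839314, + strand: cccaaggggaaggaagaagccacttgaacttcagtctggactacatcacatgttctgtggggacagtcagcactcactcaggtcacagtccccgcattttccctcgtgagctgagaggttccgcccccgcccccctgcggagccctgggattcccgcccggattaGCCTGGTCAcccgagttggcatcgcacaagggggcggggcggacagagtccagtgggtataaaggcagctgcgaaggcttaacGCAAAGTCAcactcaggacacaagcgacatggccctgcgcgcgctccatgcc
Cdkn1a, chr20:7150682-7150981, + strand: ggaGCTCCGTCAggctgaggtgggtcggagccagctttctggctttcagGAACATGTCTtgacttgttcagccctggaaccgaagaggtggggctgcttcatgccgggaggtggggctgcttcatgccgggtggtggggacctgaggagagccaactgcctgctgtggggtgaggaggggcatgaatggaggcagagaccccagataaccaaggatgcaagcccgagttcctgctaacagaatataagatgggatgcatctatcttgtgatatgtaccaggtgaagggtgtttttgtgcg
Ccng1, chr10:25684827-25685126, - strand: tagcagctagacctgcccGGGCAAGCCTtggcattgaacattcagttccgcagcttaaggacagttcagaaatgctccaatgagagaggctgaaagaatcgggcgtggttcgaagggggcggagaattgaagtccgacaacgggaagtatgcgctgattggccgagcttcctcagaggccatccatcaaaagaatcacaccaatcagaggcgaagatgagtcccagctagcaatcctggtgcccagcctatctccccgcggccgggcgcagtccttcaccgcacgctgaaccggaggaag
Aen, chr1:142224283-142224582, + strand: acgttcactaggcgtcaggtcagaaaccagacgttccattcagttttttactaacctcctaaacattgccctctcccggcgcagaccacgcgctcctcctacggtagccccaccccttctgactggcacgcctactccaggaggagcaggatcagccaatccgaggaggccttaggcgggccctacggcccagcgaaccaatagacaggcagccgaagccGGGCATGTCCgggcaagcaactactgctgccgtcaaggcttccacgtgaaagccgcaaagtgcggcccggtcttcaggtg
In Cdkn1a the p53 unit is GAACATGTCT, in Ccng1 GGGCAAGCCT and in Aen GGGCATGTCC, and the Sesn1 window held a match too. The capitals in the Gdf15 window and the first capitals in the Cdkn1a window are antioxidant response element cores on the opposite strand. A p53 unit was thus found in 4 of the 9 windows of the members, each of a different gene, against 7.98% of 33469 windows of all genes. Neither Gdf15 window held one. The antioxidant response element core was found in 12.06% of all windows, the AP-1 site in 7.33%, the ATF4 site in 3.97% and the CHR in 18.35%. The windows of the members held no AP-1 or ATF4 site, and Mdm2 held a CHR. No motif match overlapped another in these windows. A match is a string of letters, not a bound site, and p53 elements that lie further from a start or in an intron, as the known one of Mdm2 does, are outside these windows.

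Gdf15 was higher in all 3 treated rats on both of its probes. On the brightest probe of each gene the other 8 tested members differed by -0.16 to 0.38 on the log2 scale, but a second, dimmer probe of Ccng1 differed by 1.92 and the mean of both Ccng1 probes by 1.15. Levels are log2 of the background-subtracted intensity relative to the 75th percentile of each array, so that a difference of 1 is a 2-fold change. Gdf15 had levels of 0.98, 0.66 and 0.78 in the p-nitroanisole rats, against -0.08, -0.84 and -0.53 in the vehicle rats. The lowest treated rat lay above the highest vehicle rat, and the vehicle rats differed more among themselves than the treated rats did (mean 0.81 ± 0.16 with p-nitroanisole and -0.48 ± 0.38 with vehicle, SD, n = 3 each). The fold was 2.45 higher with treatment (log2 difference 1.29, SE 0.20, 95% confidence interval 0.79 to 1.80). This did not pass the limma test across all 32197 rows after Benjamini-Hochberg adjustment (adjusted p = 0.117, unadjusted p = 0.00078). A variance model with a trend and robust fitting, listed among the alternatives, gave an adjusted p of 0.0452 for the same difference. Of all rows, 0.38% had a larger rise with treatment, and rows with a fall were not counted. The second Gdf15 probe, A_42_P608780, gave levels of 0.92, 0.65 and 0.86 with p-nitroanisole, against -0.11, -0.85 and -0.57 with vehicle. Its log2 difference of 1.32 (SE 0.20) repeats the first probe on the same RNA.

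**Figure D1:**
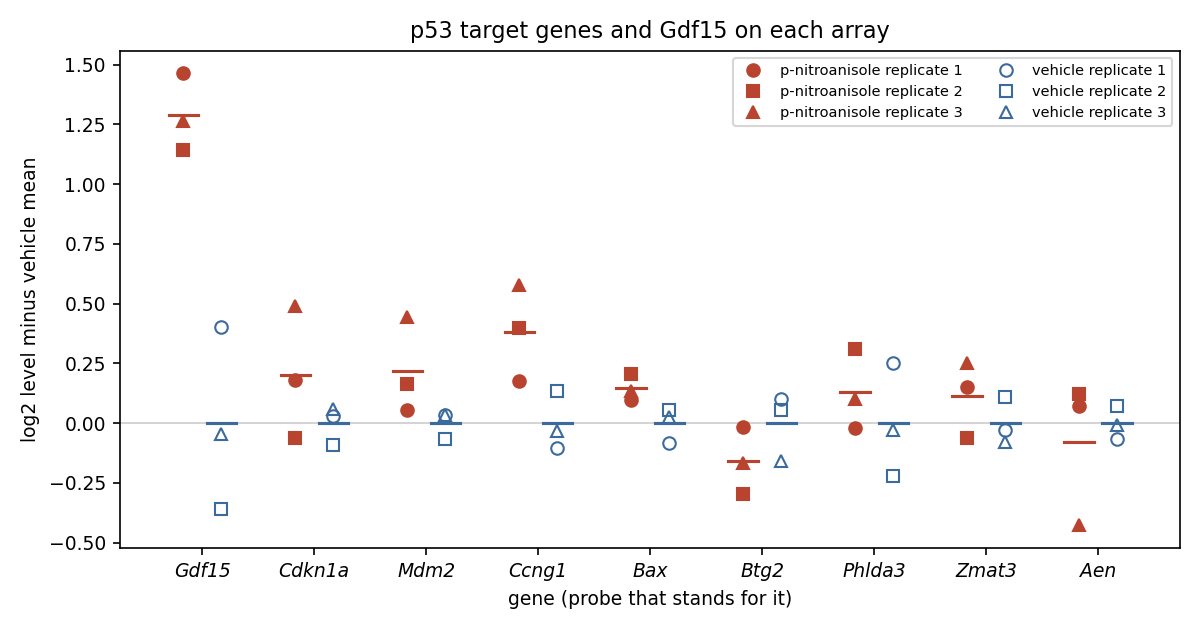
Log2 level of each member on each array, minus the mean of the 3 vehicle arrays, for the probe that stands for the gene; filled red symbols are p-nitroanisole rats, open blue symbols vehicle rats, short lines group means, and symbol shapes replicate numbers. The Gdf15 mean lies 1.29 above the vehicle mean, and the other 8 means lie between -0.16 and 0.38.

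None of the 9 tested members, each at its brightest probe, was called by limma (0 at an adjusted p under 0.05; 2, Gdf15 and Ccng1, both higher, at an unadjusted p under 0.05). Over all rows 0.0745% were called, 0.0497% higher and 0.0248% lower. At an unadjusted p under 0.05 it was 13.4% of all rows, 7.69% higher and 5.76% lower. In 4 members, Gdf15, Mdm2, Ccng1 and Bax, every treated rat lay above every vehicle rat, while 11.9% of all rows did so. No member had every treated rat below every vehicle rat, as 10.3% of all rows did. In either direction the groups did not overlap in 22.2% of all rows. The 9 members had a median log2 difference of 0.15, against 0.01 over all rows, with 7 higher and 2 lower, where 52.4% of all rows were higher. The median was 0.13 with quantile scaling and 0.09 with median scaling, again with 7 of 9 higher. Since the genes were chosen with earlier results of these arrays known, no test was made over the list.

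On their brightest probes the genes that act on the cell cycle had log2 differences of -0.16 to 0.38, against 1.29 for Gdf15. For Ccng1 this depended on the probe, with 1.92 on its second probe and 1.15 for the mean of both. Cdkn1a encodes p21, the inhibitor of cyclin-dependent kinases through which p53 stops the cycle. Its levels were 5.02, 4.78 and 5.33 with p-nitroanisole, against 4.87, 4.75 and 4.90 with vehicle. The groups overlapped, and the treated rats were more spread than the vehicle rats. The log2 difference was 0.20 (SE 0.15, interval -0.16 to 0.56, limma adjusted p = 0.588). Ccng1, cyclin G1, which recruits a phosphatase to Mdm2, had levels of 2.29, 2.51 and 2.69 with p-nitroanisole, against 2.01, 2.25 and 2.08 with vehicle. Its lowest treated rat lay just above the highest vehicle rat, with a log2 difference of 0.38 (SE 0.12, interval 0.08 to 0.69, limma adjusted p = 0.298). Btg2, an antiproliferative gene that promotes mRNA deadenylation, had levels of 0.27, -0.01 and 0.12 with p-nitroanisole, against 0.39, 0.34 and 0.13 with vehicle. The log2 difference of Btg2 was -0.16 (SE 0.11, interval -0.43 to 0.11, limma adjusted p = 0.567), and its groups overlapped.

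Mdm2, the ligase that closes the p53 feedback loop, had levels of 0.86, 0.97 and 1.25 with p-nitroanisole, against 0.84, 0.74 and 0.84 with vehicle. Treated replicate 3 stood apart, and treated replicate 1 was close to the vehicle rats. Without treated replicate 3 the log2 difference was 0.10. With all 6 rats it was 0.22 (SE 0.12, interval -0.07 to 0.50, limma adjusted p = 0.472). Zmat3, a zinc finger protein that binds RNA and regulates splicing, had levels of 1.67, 1.46 and 1.77 with p-nitroanisole, against 1.49, 1.63 and 1.44 with vehicle, a log2 difference of 0.11 (SE 0.10, interval -0.14 to 0.37, limma adjusted p = 0.665).

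Genes of cell death were as close. Bax, which opens the outer mitochondrial membrane, had levels of 3.15, 3.26 and 3.19 with p-nitroanisole, against 2.97, 3.11 and 3.08 with vehicle. The groups did not overlap, but the log2 difference was 0.15 (SE 0.07, interval -0.03 to 0.32, limma adjusted p = 0.438). Phlda3, which keeps the survival kinase AKT from the membrane, had levels of -3.07, -2.74 and -2.95 with p-nitroanisole, against -2.80, -3.27 and -3.08 with vehicle, a log2 difference of 0.13 (SE 0.15, interval -0.24 to 0.49, limma adjusted p = 0.732). Aen, an exonuclease that cuts DNA in apoptosis, had levels of 2.82, 2.87 and 2.32 with p-nitroanisole, against 2.68, 2.82 and 2.74 with vehicle. Its treated replicate 3 was the lowest of the 6 rats, and the log2 difference was -0.08 (SE 0.16, interval -0.47 to 0.31, limma adjusted p = 0.844). It was 0.09 without that rat.

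On the brightest probes, the 95% intervals of the 8 members other than Gdf15 reached at most 0.69, below the lower bound of Gdf15 at 0.79. This did not hold for the second Ccng1 probe, whose interval of 0.35 to 3.50 spans that of Gdf15. The intervals are not adjusted for the number of genes, and 7 of the 8 on the brightest probes include 0. To compare Gdf15 with each member directly, the difference of their log2 levels, again on the brightest probes, was taken on each array and compared between groups. Against Cdkn1a it was -4.04, -4.11 and -4.54 in the p-nitroanisole rats and -4.95, -5.60 and -5.42 in the vehicle rats, so that Gdf15 gained 1.09 on Cdkn1a. Against Mdm2 it gained 1.08, against Bax 1.15 and against Ccng1, the nearest, 0.91, with 1.45 against Btg2 as the highest gain. In all 8 comparisons of brightest probes every treated rat lay above every vehicle rat. The exact two-sided permutation test gave p = 0.10 in each (adjusted p = 0.10 over the 8 comparisons), which is the smallest p that 3 against 3 rats allow. Every such comparison uses the same Gdf15 levels, and Gdf15 was chosen with earlier results of these arrays known. The 8 comparisons are therefore not independent evidence. The comparison with Ccng1 turned with the probe. Against the second Ccng1 probe the difference of levels was 1.57, -1.02 and -1.02 in the p-nitroanisole rats and 0.93, 0.02 and 0.46 in the vehicle rats, so that the groups overlapped and the gain was -0.63 (exact two-sided permutation p = 0.60). Against the mean of both Ccng1 probes the gain was 0.14, with overlapping groups (exact two-sided permutation p = 0.80). Against the further tested probes of Cdkn1a, Mdm2, Bax, Btg2 and Aen the gain was 1.17 to 1.65, with every treated rat above every vehicle rat. These probe comparisons were added after the data were seen.

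The treated rats did not share an order across the members. Slide 2 held treated replicate 3 alone. That rat was the highest of the 6 rats for Cdkn1a, Mdm2, Ccng1 and Zmat3 and the lowest for Aen, while treated replicate 1 was the highest for Gdf15. Each treated rat had 6 of 9 members above the vehicle range, where 29.2% to 36.0% of all rows lay above it. Treated replicates 1, 2 and 3 had 0, 1 and 2 members below it, where 28.3% to 32.0% of all rows lay below. Within slide 1, which held the 3 vehicle rats and treated replicates 1 and 2, the log2 difference of Gdf15 was 1.30, that of Ccng1 0.29 and that of Bax 0.15. Mdm2 stood at 0.10 there, Cdkn1a at 0.06 and Zmat3 at 0.04. On slide 1 the vehicle arrays lay in row 1 and the treated arrays in row 2. Row and treatment cannot be told apart within that slide.

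**Figure D2:**
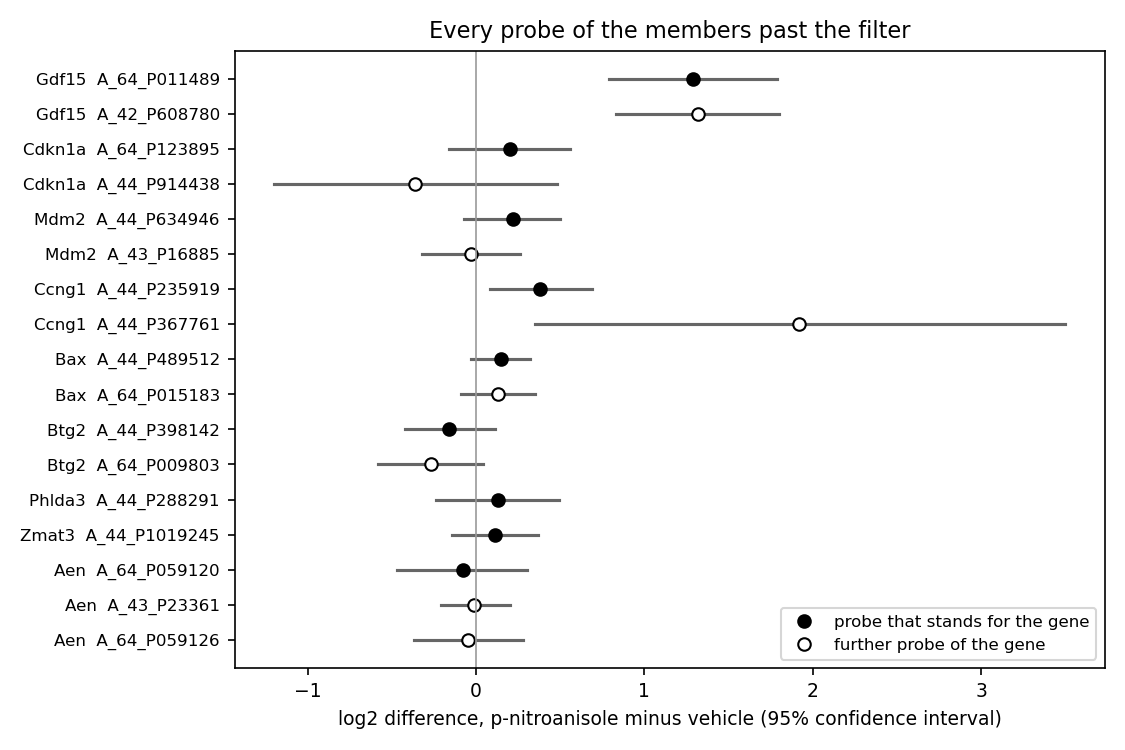
Log2 difference, p-nitroanisole minus vehicle, of the 17 member probes past the filter, with limma 95% confidence intervals from a fit with every probe as its own row; filled points are the probes that stand for a gene, open points further probes. Both Gdf15 probes lie at 1.29 and 1.32, and the further Ccng1 probe has the widest interval, 0.35 to 3.50.

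Further probes of a gene gave close values for Bax (0.13), Btg2 (-0.27) and Aen (-0.01 and -0.05) but not for Ccng1, Cdkn1a and Mdm2. The second Ccng1 probe, A_44_P367761, had levels of -0.59, 1.69 and 1.81 with p-nitroanisole, against -1.01, -0.87 and -0.98 with vehicle. Treated replicates 2 and 3 thus stood far above every vehicle rat on this probe and treated replicate 1 just above them, a split that the first Ccng1 probe did not show. Its log2 difference was 1.92 with a wide error (SE 0.64, interval 0.35 to 3.50, limma adjusted p = 0.309). The mean of both Ccng1 probes gave a log2 difference of 1.15, against 0.38 on the first. The second Cdkn1a probe, A_44_P914438, had levels of 0.64, 1.07 and 0.93 with p-nitroanisole, against 0.73, 2.02 and 0.97 with vehicle. Vehicle replicate 2 was high on it, and the log2 difference was -0.36 (SE 0.34, interval -1.20 to 0.48). With the mean of both tested probes, the Cdkn1a difference turned to -0.08. The dimmest Cdkn1a probe and a second Zmat3 probe were well above background on 1 to 2 rats of each group and were not tested. The second Mdm2 probe, A_43_P16885, differed by -0.03 (SE 0.12).

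**Figure D3:**
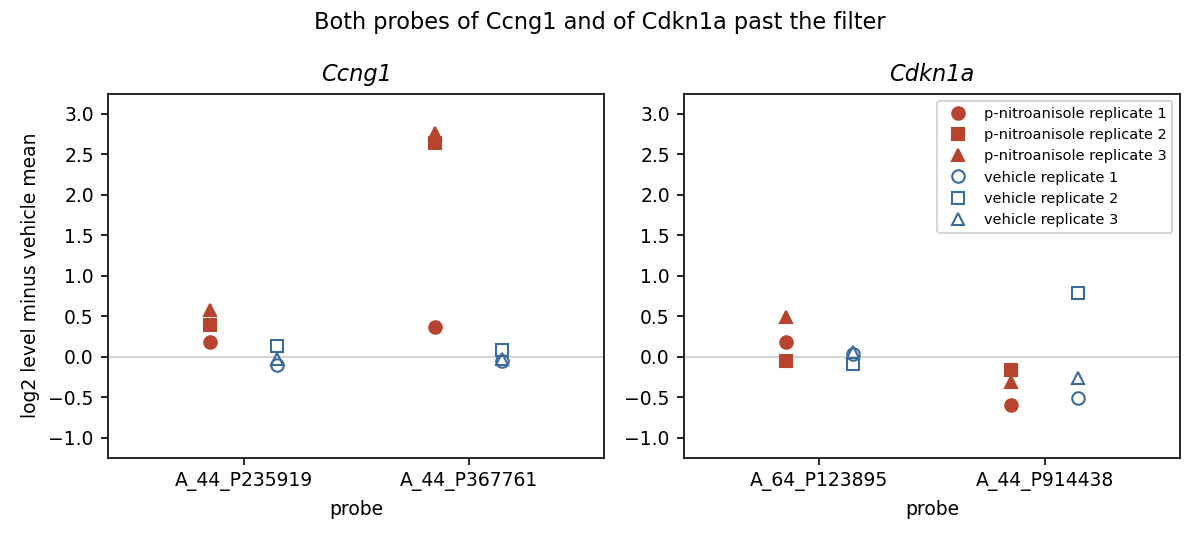
Log2 level on each array, minus the mean of the 3 vehicle arrays, for the tested probes of Ccng1 (left) and Cdkn1a (right); filled red symbols are p-nitroanisole rats, open blue symbols vehicle rats, and shapes replicate numbers. On the further Ccng1 probe 2 treated rats stand far above the rest, and on the further Cdkn1a probe vehicle replicate 2 stands highest.

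A wider list of p53 targets was split between higher and lower genes. Of its 48 genes, 37 were tested, 20 of them higher and 17 lower, with a median log2 difference of 0.01 and 0 called by limma (4 higher and 0 lower at an unadjusted p under 0.05). With quantile scaling 16 were higher and the median was -0.02, and with median scaling 15 were higher and it was -0.04. By limma 0.0745% of all rows were called, so 0 called in a list of this size is no result about its genes. At an unadjusted p under 0.05, 7.69% of all rows were higher and 5.76% lower. Psrc1, a spindle protein, had the largest difference at 0.90 (SE 0.18, limma adjusted p = 0.164). Ephx1, the microsomal epoxide hydrolase, which NRF2 also raises, was next among the higher genes at 0.72 (SE 0.13, limma adjusted p = 0.139; 0.0475 with the trended robust variance). Ddit4, an inhibitor of the growth kinase mTORC1, differed by -0.86 (SE 0.41), with levels of 1.53, 1.42 and 1.44 in treated rats, against 2.39, 3.15 and 1.44 in vehicle rats. The DNA damage genes Gadd45a, Ddb2 and Polk differed by 0.09, -0.06 and -0.02, and the death receptor gene Fas by 0.01. Other genes of the list linked to DNA repair or synthesis differed more. Pcna differed by 0.24 (SE 0.06, limma adjusted p = 0.233), Rrm2b by 0.17 (SE 0.09) and Xpc by -0.20 (SE 0.11). Of the death genes Bbc3, which encodes PUMA, differed by 0.37 (SE 0.12), while Pmaip1, which encodes NOXA, was not well above background on any array.

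Genes that act on p53 were near their vehicle levels too, with 15 of 19 tested, 9 higher and 6 lower, and a median of 0.08 (limma, 0 called, 2 higher and 0 lower at an unadjusted p under 0.05). The checkpoint kinase gene Chek2 differed by 0.42 (SE 0.13, limma adjusted p = 0.280), and Cdkn2a, which encodes the Mdm2 inhibitor ARF, by 0.28 (SE 0.12). Mdm4, the inhibitory partner of Mdm2, differed by 0.07 (SE 0.08). In the DNA repair list 26 of 32 genes were tested, 15 higher and 11 lower, with a median of 0.03 (limma, 0 called, 2 higher and 1 lower at an unadjusted p under 0.05). The direction of that median turned with median scaling, at -0.03. For both lists the limma shares over all rows were 0.0745% called, and 7.69% higher and 5.76% lower at an unadjusted p under 0.05. Mutyh, a glycosylase of oxidised DNA, differed by 0.37 (SE 0.21, limma adjusted p = 0.498).

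The BCL2 family, 11 of 12 tested, had 3 higher and 8 lower with a median of -0.03 (limma, 0 called, 1 in each direction at an unadjusted p under 0.05). Bok, a relative of Bax, differed by 0.48 (SE 0.10, limma adjusted p = 0.160), Bcl2a1 by -0.46 (SE 0.22) and Bmf by -0.32 (SE 0.12). Close relatives of the members, 17 of 19 tested, had 8 higher and 9 lower with a median of -0.02 (limma, 0 called, 2 in each direction at an unadjusted p under 0.05). Cdkn1c, a relative of Cdkn1a, differed by -0.42 (SE 0.12, limma adjusted p = 0.252) and the dim Zmat4 by -0.84 (SE 0.29; -0.14 with normexp background). Sesn2, the relative of the unmatched Sesn1, differed by -0.14 (SE 0.10). Beside the counts of both lists, limma called 0.0745% of all rows, and 7.69% were higher and 5.76% lower at an unadjusted p under 0.05.

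**Figure D4:**
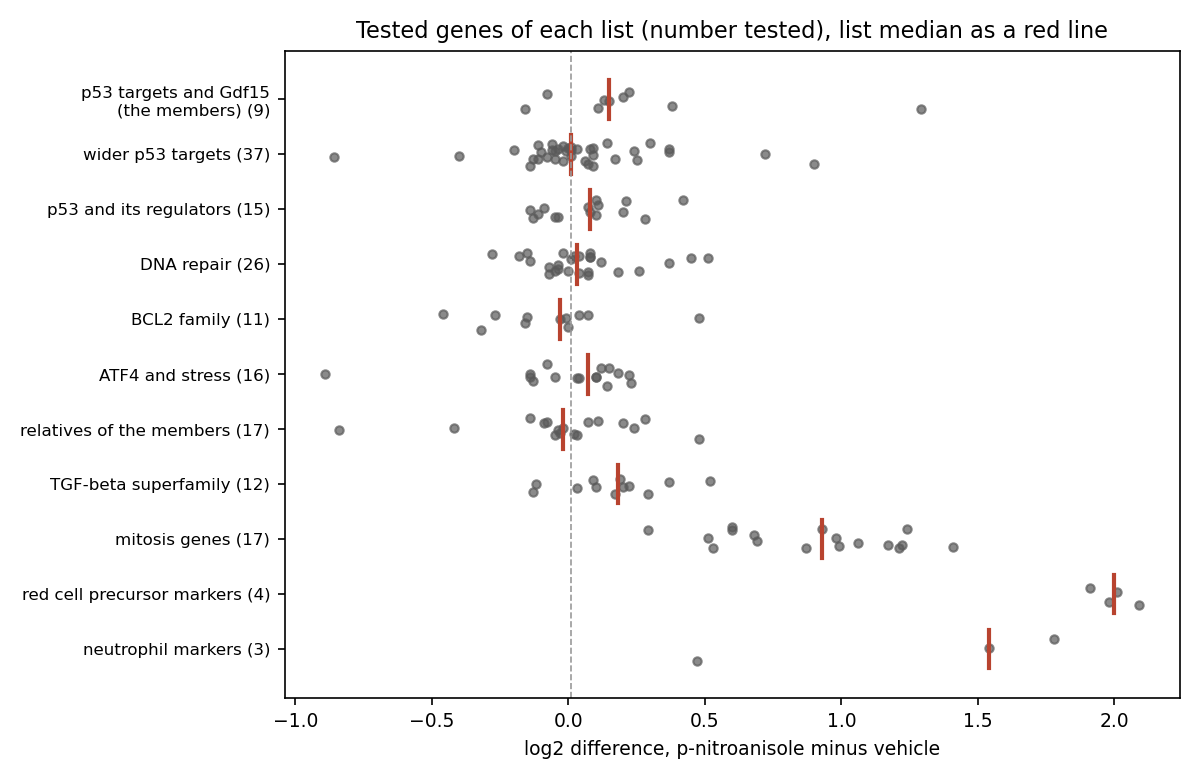
Log2 difference, p-nitroanisole minus vehicle, of every tested gene of each list (grey points, number tested in brackets), with the list median as a red line and the median of all rows, 0.01, as a dashed line. Medians of the upper 8 lists lie between -0.03 and 0.18, the mitosis genes at 0.93, and the red cell precursor and neutrophil markers at 2.00 and 1.54.

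The ATF4 stress genes stood near their vehicle levels, with 16 of 18 tested, 10 higher and 6 lower, and a median of 0.07 (limma, 0 called, 1 in each direction at an unadjusted p under 0.05). With median scaling 8 of the 16 were higher. Nupr1 differed by -0.89 (SE 0.32, limma adjusted p = 0.326), Ppp1r15a, a phosphatase subunit that ends the stress response, by 0.23 (SE 0.08) and Asns, asparagine synthetase, by 0.22 (SE 0.13). Atf4 differed by -0.14 (SE 0.10), Ddit3, which encodes CHOP, by 0.03 (SE 0.12) and Trib3 by 0.10 (SE 0.17). Of the TGF-beta superfamily ligands 12 were tested, 10 higher and 2 lower, with a median of 0.18 (limma, 0 called and 0 at an unadjusted p under 0.05; lowest adjusted p 0.448). Inhbb differed by 0.37 (SE 0.20), Bmp6 by 0.29 (SE 0.23) and Tgfb2 by 0.52 with a wide error (SE 1.00). The receptor gene Gfral was not well above background on any array. Again the limma shares over all rows were 0.0745% called, and 7.69% higher and 5.76% lower at an unadjusted p under 0.05.

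Mitosis genes, which p53 lowers through p21 and the DREAM complex in other systems, were higher in the treated rats. All 17 tested genes of 20 were higher with p-nitroanisole, with a median log2 difference of 0.93 (0.87 with quantile or median scaling, 0.71 with normexp background). By limma 1 was called, Prc1, which bundles spindle microtubules (levels of -0.92, -0.70 and -0.81 with p-nitroanisole, against -1.85, -2.00 and -2.09 with vehicle, log2 difference 1.17, SE 0.10, adjusted p = 0.0403), and 15 were higher at an unadjusted p under 0.05. Ttk, a spindle checkpoint kinase, had levels of -1.95, -1.50 and -1.54 with p-nitroanisole, against -2.87, -3.15 and -3.20 with vehicle, a log2 difference of 1.41 (SE 0.16, limma adjusted p = 0.068). The gene Ube2c, whose product marks mitotic cyclins for breakdown, differed by 1.24 (SE 0.12, limma adjusted p = 0.0516) and the kinase gene Cdk1 by 1.22 (SE 0.16, limma adjusted p = 0.0899). In 15 of the 17 every treated rat lay above every vehicle rat, as in 11.9% of all rows. By limma 0.0745% of all rows were called, and 7.69% were higher at an unadjusted p under 0.05. Aurkb and Cenpa were well above background on only 1 and 2 of the 3 vehicle arrays. They passed the filter through the treated group alone, which favours a higher value there. These genes were already seen to be higher on these arrays when the list was made, so the count is no independent evidence.

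The genes most like Gdf15 were sought as the named genes with the smallest root mean square distance between centred log2 levels over the 6 arrays. This distance includes the difference between the groups. The nearest genes therefore share that difference by the way they were chosen, and it is no further evidence. The 5 nearest of 12206 were Fgf17 at 0.133, Kif2c at 0.152, Tpx2 at 0.180, Ccl2 at 0.181 and Ube2c at 0.193. Kif2c, Tpx2 and Ube2c act in mitosis, Ccl2 is a chemokine of monocytes and Fgf17 a growth factor. Fgf17 was dim, well above background on 2 of 3 vehicle arrays, and its log2 difference of 1.40 (SE 0.25) was 0.54 with normexp background, where Kif2c (limma adjusted p = 0.0449) stood at 0.52 in place of 1.29 and Gdf15 at 1.17 in place of 1.29. Ccl2 had levels of 0.14, -0.14 and -0.13 with p-nitroanisole, against -0.53, -1.54 and -0.99 with vehicle, with vehicle replicate 2 lowest, as for Gdf15. On brightest probes the nearest p53 target among the members, Ccng1, lay at 0.571 and ranked 939, while Aen lay at 0.760, beyond the 0.689 by which Gdf15 itself varied.

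**Figure D5:**
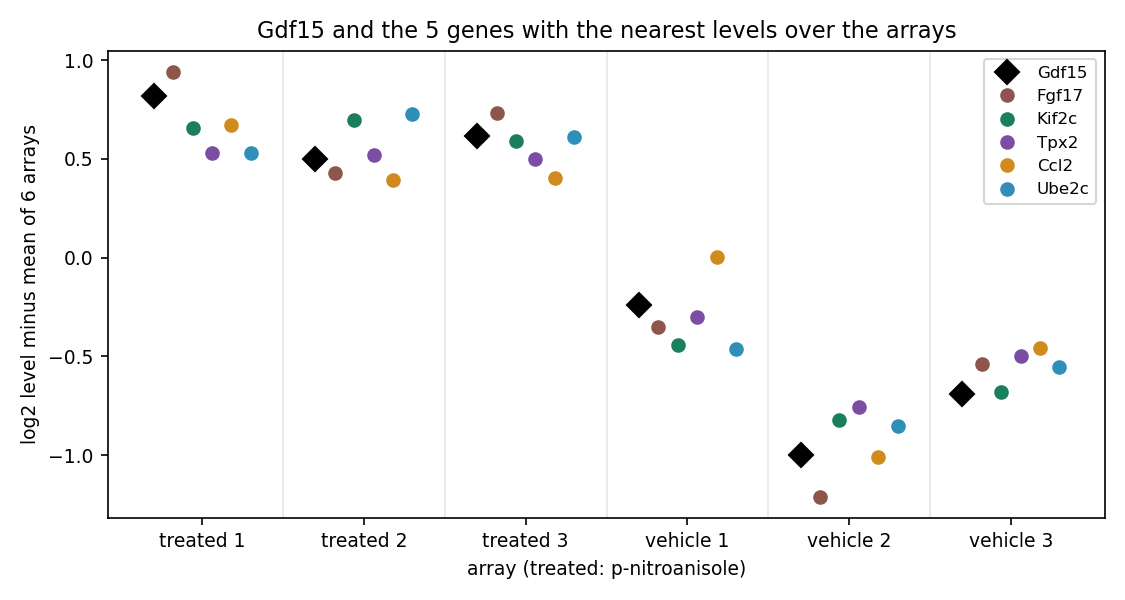
Log2 level of Gdf15 (black diamonds) and of the 5 nearest named genes (coloured points) on each array, minus the gene's mean over the 6 arrays. All 6 genes lie higher on the 3 p-nitroanisole arrays than on the 3 vehicle arrays, and vehicle replicate 2 is the lowest array for each. The 5 genes were picked for their likeness to Gdf15 on these same arrays, so the shared pattern follows from the choice.

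Markers of red cell precursors and neutrophils moved with the groups, as Gdf15 did. Of the red cell precursor markers 4 of 5 were tested and all were higher in every treated rat. Hemgn, well above background on 2 of 3 vehicle arrays, passed the filter through the treated group alone, which favours a higher value there. The summed level of the 4 was 6.97 to 11.4 times the 75th percentile of the array with p-nitroanisole and 1.93 to 2.65 times with vehicle. Alas2, which starts heme synthesis in red cell precursors, rose 3.75-fold (log2 difference 1.91, SE 0.14, limma adjusted p = 0.0403). Neutrophil markers, 3 of 4 tested, were higher too, with summed levels of 1.27 to 1.37 with p-nitroanisole and 0.433 to 0.582 with vehicle. S100a8, a subunit of calprotectin, rose (log2 difference 1.78, SE 0.16, limma adjusted p = 0.0453). The other tested neutrophil markers were S100a9, at 1.54 (SE 0.17, limma adjusted p = 0.0661), and Camp, at only 0.47 (SE 0.13, limma adjusted p = 0.246). Ngp was not well above background on any array. Macrophage markers, 4 of 5 tested, summed to 2.38 to 3.15 with p-nitroanisole and 3.14 to 3.46 with vehicle. The 4 genes did not share a direction, with 2 higher and 2 lower. Mrc1 differed by 0.52 (SE 0.18), Csf1r by 0.01, Adgre1 by -0.05 and Cd68, the brightest, by -0.43 (SE 0.17). Cd163 was not well above background on any array. The part of these cells in the Gdf15 difference was not tested, and in whole cortex a change in the number of cells of a type and a change in RNA per cell cannot be told apart.

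Markers of the labelled tissue were present. All 5 proximal tubule markers were well above background on every array, with a summed level of 966 to 986 with p-nitroanisole and 909 to 924 with vehicle, and the podocyte and thick limb markers were present too. Across the arrays 40877 to 42601 of 61537 probes were well above background, 0 spots were saturated, and 0 to 4 spots per array were left out as outliers. By limma 24 of 32197 rows were called, 16 higher and 8 lower. The limma p-values rest on the spread between 3 animals per group, which limma moderates with the spread seen over all rows. The number of animals limits the precision of every comparison.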

How the data were processed

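RNA of 6 rats was read on 1-colour Agilent arrays. Per the file headers, the authors extracted each spot's intensity with version 10.7.1.1 of Feature Extraction (10.7 per the submitters' processing notes). The deposited intensity used is background-subtracted and not scaled between arrays. The authors' series matrix holds the same intensities divided by 1 constant per array, with no centring per gene.

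Log2 processed intensity, floored at 1, minus the 75th percentile of each array was compared with limma 3.58.1 in R 4.3.3 (eBayes, two-sided, Benjamini-Hochberg over 32197 rows, threshold 0.05). Control and outlier spots did not enter. Testing required a signal well above background on all arrays of 1 group or both, and the brightest tested probe stood for each gene. Accessions were named through RefSeq (GRCr8), which covered 45.84% of probes. 

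The members and lists were chosen with earlier results of these data known. All members are named, and of each list the 3 genes with the largest differences and any called gene, except some that are not reported here; other genes named were chosen after their values were seen.

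On simulated data for p-nitroanisole against vehicle over 32197 rows the fit found 9 of 67 rows with a log2 change of 0.5, 41 of 67 with 1 and 61 of 66 with 2, and 12 of its 123 calls were unchanged rows. Same-numbered rats did not pair (correlations of deviations -0.01 to 0.04). The alternatives were scaling, background, filters, probe choice, variance model, slide, replicate block, threshold and leaving out each array. The planned normexp correction on mean signals was run on median signals, since the scanner files analysed here hold those, and was chosen after the files were seen.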

Additional observations from a re-analysis of the deposited data

How the results depend on the processing

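Gdf15 was higher under all 18 alternatives, with a log2 difference from 1.11 without vehicle replicate 2 to 1.49 without vehicle replicate 1, and it passed the adjusted threshold in 1 of them, the trended robust variance (1.29, adjusted p = 0.0452, 1 member called). Over the alternatives its limma adjusted p was 0.0452 to 0.300. No other alternative called a member. The count of called rows, 24, was 82 with normexp background, 316 with the trended robust variance, 33 with probes bright on each of the 6 arrays, 14 with the mean of a gene's probes, 9 with the slide as a block or within slide 1, 2 with no filter, 1 with the replicate block and 0 at a threshold of 0.01 (limma; 4329 at an unadjusted p under 0.05). Leaving out each array in turn gave 0 to 9 called rows, with 0 without treated replicate 1 (3718 at an unadjusted p under 0.05) and without vehicle replicate 2 (3262). With the replicate block Gdf15 differed by 1.29 (adjusted p = 0.231); the numbers do not pair the rats. Signs turned for Cdkn1a with the mean of its probes (-0.08), for Aen with the slide as a block, within slide 1 or without treated replicate 3 (0.09 each; -0.18 to 0.09 over arrays left out) and for Tgfb2 without vehicle replicate 3 (-0.06; -0.06 to 1.53). The cause of these changes was not tested. Normexp on mean signals was not run.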
